A study of Mus musculus with 49 samples.

Results

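NRF2, the transcription factor encoded by Nfe2l2, its inhibitor Keap1 and 8 target genes of oxidative stress defence were followed in the bladders of mice that drank arsenate. The targets were Hmox1, Nqo1, Gclm, Gclc, Srxn1, Slc7a11, Me1 and Cat. The 10 genes were taken by name, each by its probe set of highest mean among the probe sets annotated to that gene alone. They are 10 of 18193 genes with such a probe set and 10 of the 14618 genes bright enough to be tested. All 10 passed the filter on dim signals.

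The mice were adult females of the strain C57Bl/J with arsenate, a pentavalent inorganic form of arsenic, in their drinking water at 0.5, 2, 10 or 50 ppm, or with water alone. Bladders were taken after 12 weeks, at an age of 155 days, or after 1 week, at an age of 76 days. Each group held 5 mice, except 0.5 ppm at 1 week with 4, and each of the 49 arrays held the RNA of the whole bladder of 1 mouse. The label of a mouse opens with a number that its whole group has in common and that the labels do not explain, so this number and the dose cannot be told apart.

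In unstressed cells KEAP1 holds NRF2 in the cytoplasm and hands it to a CUL3 ubiquitin ligase for breakdown. Oxidants and electrophiles, trivalent arsenic among them, modify cysteines of KEAP1, after which NRF2 enters the nucleus, pairs with a small MAF protein and binds antioxidant response elements of its target genes. The targets make glutathione, reduce quinones and peroxides, supply NADPH and break down haem. NRF2 activity is set mostly by protein breakdown, so the mRNA of Nfe2l2 itself is not a measure of it.

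Levels are given as log2(signal + 16) of the deposited array signals, a scale with a floor of 4, and differences as log2 differences ± SE from limma. A gene is called where the p-value, adjusted by Benjamini-Hochberg over all 14618 genes, lies under 0.05. Defining genes of the bladder were bright in these arrays. The urothelial gene Upk1b averaged 14.85 and the smooth muscle gene Acta2 averaged 15.28 over the 49 arrays, and 5 of 5 markers of umbrella and intermediate urothelium and 6 of 6 of smooth muscle were measured. RNA integrity numbers averaged 8.16 (7.2 to 9.7) at 2 ppm and 1 week, and 8.73 to 9.64 in the other groups, with no number given for bladders 1 and 2 at 10 ppm and 1 week. Values are those of the brightest probe set of each gene unless another is named, and 8 of the 10 genes have more than 1. Over the 64 comparisons of these 8 genes with water at 1 dose and harvest, the probe sets of a gene differed in sign in 21. The arrays resolve whole organs, in which fewer cells of a type and less RNA per cell cannot be told apart.

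Promoter sequences of Hmox1 and Gclc were missing from the source used, so these 2 genes were not searched. Promoters of the other 8 of the 10 genes were read from RefSeq (build GRCm38.p6) over the 250 bases before the start of transcription, with 2 starts for Me1. They were searched on both strands for the core of the antioxidant response element, TGACNNNGC, and for the AP-1 site, TGANTCA, which is related in sequence. The patterns share letters and would overlap in a run that begins with TGACTCA and goes on with GC. The core was found in Nfe2l2, at positions -240 to -232 counted from the start, and in Gclm, at -134 to -126 on the opposite strand. It occurs in 10.2% of the 32851 windows of that length in the table. Srxn1 held the AP-1 letters at -102 to -96 and at -45 to -39, and 6.75% of all windows hold them. None of these matches overlapped another. The Srxn1 match at -45 to -39 went on with GC, as TGAGTCAGC. This run has G after TGA where the core searched has C, so it was not counted as a core. Cores with another letter in that place were not searched. The windows with the core are shown with that of Nqo1, a member with a called slope over dose at 12 weeks. Neither pattern was found in its window. Capitals mark the core, and all 3 sequences run 5′ to 3′ towards the start.
Nfe2l2, chr2:75704664-75704913, minus strand: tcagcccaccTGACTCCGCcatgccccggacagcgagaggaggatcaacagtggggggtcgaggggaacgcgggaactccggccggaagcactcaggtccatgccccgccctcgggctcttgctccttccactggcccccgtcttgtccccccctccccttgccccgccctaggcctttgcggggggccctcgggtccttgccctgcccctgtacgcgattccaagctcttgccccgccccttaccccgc
Gclm, chr3:122245307-122245556, plus strand: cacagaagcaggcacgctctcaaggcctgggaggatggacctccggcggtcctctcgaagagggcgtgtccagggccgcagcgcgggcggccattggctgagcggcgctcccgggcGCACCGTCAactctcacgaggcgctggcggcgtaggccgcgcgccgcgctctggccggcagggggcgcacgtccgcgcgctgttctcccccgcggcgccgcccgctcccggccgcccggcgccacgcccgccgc
Nqo1, chr8:107403206-107403455, minus strand: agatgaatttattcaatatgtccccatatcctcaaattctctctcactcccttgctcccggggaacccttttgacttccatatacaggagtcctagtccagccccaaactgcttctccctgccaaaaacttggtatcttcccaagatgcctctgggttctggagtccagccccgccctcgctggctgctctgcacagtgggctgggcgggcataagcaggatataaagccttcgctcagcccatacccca
A match is a run of letters and not a measured binding site, and the absence of one concerns these 250 bases only.

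At 12 weeks 1 of the 10 genes was called at 50 ppm. This was Hmox1, which encodes haem oxygenase 1, the enzyme that opens haem to biliverdin, iron and carbon monoxide. Hmox1 had levels of 9.08, 9.11, 9.02, 8.80 and 9.51 in the 5 bladders at 50 ppm, against 8.80, 8.38, 8.55, 8.35 and 8.12 in the 5 water bladders. All 5 arsenate bladders lay above the highest water bladder, but the nearest of them met it almost exactly, at 8.802 against 8.8005. Hmox1 rose by 0.66 ± 0.15, a 1.58-fold difference with a 95% interval of 0.36 to 0.96 on the log2 scale (limma adjusted p = 0.0201). At this dose 4.06% of all genes tested were called, and the groups did not overlap for 5.85% of them. The call was lost when water bladder 2 (adjusted p = 0.0566) or water bladder 5 (adjusted p = 0.0527) was left out.

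Between water and 50 ppm, the 12-week means of Hmox1 did not follow the dose in strict order. They were 8.44 ± 0.26 in water, 8.54 ± 0.24 at 0.5 ppm, 8.94 ± 0.25 at 2 ppm, 8.72 ± 0.08 at 10 ppm and 9.10 ± 0.26 at 50 ppm (SD, n = 5 each). The 2 ppm bladders had 8.72, 8.72, 8.94, 8.98 and 9.34, of which 3 lay above every water bladder. The 10 ppm bladders had 8.77, 8.64, 8.61, 8.80 and 8.75 and 1 of them lay above every water bladder. At 2 ppm Hmox1 differed from water by 0.50 ± 0.15 and at 10 ppm by 0.28 ± 0.15, neither called (limma adjusted p = 0.426 and 0.35). In the order of means, which ran from water over 0.5, 10 and 2 ppm to 50 ppm, each pair of neighbours lay closer together than the larger of their SDs. A slope over the dose ranks, from 0 for water to 4 for 50 ppm, was called with a rise of 0.15 ± 0.04 per rank (limma adjusted p = 0.0158).

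**Figure D1:**
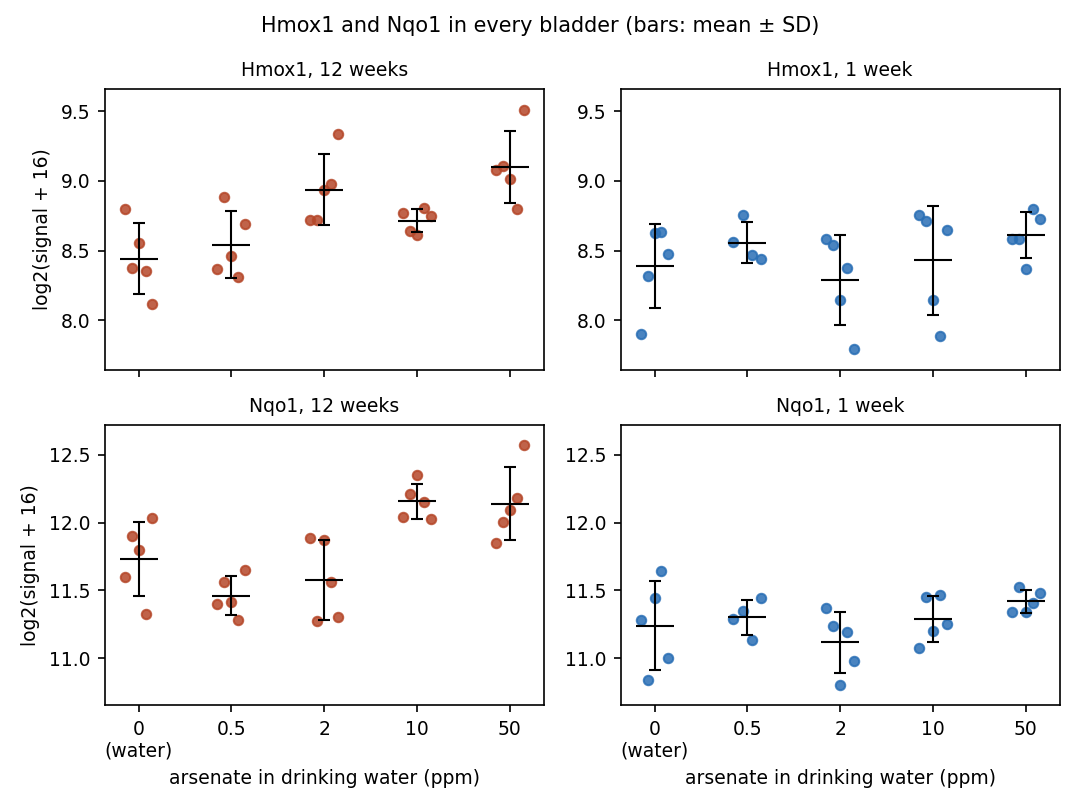
Levels of Hmox1 (top) and Nqo1 (bottom) as log2(signal + 16) in every bladder at 12 weeks (left) and at 1 week (right), by arsenate dose in ppm, each point 1 mouse and each bar a mean ± SD. Hmox1 at 50 ppm and 12 weeks lies above all water bladders, and the 12-week means of Nqo1 were 12.16 and 12.14 at the highest doses.

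Nqo1 encodes the quinone reductase NQO1, whose messenger is a common readout of NRF2 activity. At 12 weeks its levels in water were 11.60, 11.90, 11.80, 11.33 and 12.03. At 0.5 ppm they were 11.40, 11.56, 11.41, 11.28 and 11.65, and at 2 ppm 11.89, 11.28, 11.87, 11.56 and 11.30. At 10 ppm they were 12.04, 12.21, 12.35, 12.15 and 12.03, and at 50 ppm 11.85, 12.00, 12.09, 12.18 and 12.57. The bladders at 10 and 50 ppm all lay above every bladder at 0.5 ppm, the group of lowest mean at 12 weeks. The share of all genes with such a gap between arsenate groups was not counted. The groups at 10 and 50 ppm both overlapped with water, with 4 of 5 and 3 of 5 of their bladders above the highest water bladder.

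Nqo1 rose by 0.15 ± 0.04 per dose rank (limma adjusted p = 0.0229). Together with Hmox1 this made 2 of the 10 genes called in the 12-week dose trend, in which 5.27% of all genes were called. Against water alone Nqo1 differed by 0.42 ± 0.14 at 10 ppm (limma adjusted p = 0.135) and by 0.41 ± 0.14 at 50 ppm (limma adjusted p = 0.0781), and it was not called at any dose. Over the 4 arsenate groups without water the slope of Nqo1 was 0.26 ± 0.05 per rank (limma adjusted p = 0.00573) and that of Hmox1 was 0.15 ± 0.05 (limma adjusted p = 0.1). The 5 markers of umbrella and intermediate urothelium averaged 13.81 in water, 13.65 at 0.5 ppm, 13.76 at 2 ppm, 13.94 at 10 ppm and 13.85 at 50 ppm at 12 weeks, so they too were lowest at 0.5 ppm and highest at 10 ppm, and their part in the level of Nqo1 was not tested. The call of Nqo1 was lost when 50 ppm bladder 4 (adjusted p = 0.0514) or 50 ppm bladder 5 (adjusted p = 0.0608) was left out.

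Measures of the labelling moved with dose at 12 weeks. The poly-A controls, bacterial RNAs that are added before labelling, averaged 10.71 in water, 10.30 at 0.5 ppm, 10.21 at 2 ppm, 9.65 at 10 ppm and 9.84 at 50 ppm. The hybridization controls averaged 11.76 at 10 ppm and 11.72 at 50 ppm, against 11.20 in water. With the poly-A controls as a covariate, Hmox1 differed at 50 ppm by 0.74 ± 0.22 and kept no call (limma adjusted p = 0.211). The slopes under that covariate were 0.21 ± 0.05 for Hmox1 (limma adjusted p = 0.29) and 0.18 ± 0.06 for Nqo1 (limma adjusted p = 0.37), neither called. With the hybridization controls as a covariate the slope was 0.18 ± 0.05 for Hmox1, still called (limma adjusted p = 0.0489), and 0.14 ± 0.05 for Nqo1, not called (limma adjusted p = 0.11).

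Hmox1 is also a gene of macrophages, which take up haem. All 6 macrophage markers were measured, none near the floor, and their mean level was 10.59 (10.39 to 10.78) at 50 ppm, against 10.54 (10.43 to 10.66) in water at 12 weeks. Of 4 erythroid markers 2 were measured, with Hba-a1 near the floor, and their mean was 6.23 (5.70 to 7.00) at 50 ppm, against 6.89 (6.54 to 7.06) in water. The part of these cells in the level of Hmox1 was not tested.

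The sensor and the factor themselves were not called at any dose at 12 weeks. Nfe2l2 lay 0.12 to 0.24 above water, with a mean of 12.67 ± 0.20 at 50 ppm, against 12.53 ± 0.28 in water. Its other probe set had the opposite sign at 0.5 ppm (-0.19 ± 0.23) and at 50 ppm (-0.23 ± 0.23), so the direction for Nfe2l2 is not settled there. Keap1 differed from water by -0.23 ± 0.12 at 50 ppm (limma adjusted p = 0.265), where its 5 bladders had 10.41, 10.45, 10.51, 10.03 and 10.42, against 10.33, 10.84, 10.67, 10.59 and 10.54 in water. These groups overlapped, and 50 ppm bladder 4 lay apart from the others.

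Among the genes of glutathione synthesis, Gclc encodes the catalytic and Gclm the modifier subunit of glutamate cysteine ligase, and Slc7a11 the cystine carrier xCT. Gclc was highest at 10 ppm, with 11.93, 11.46, 11.76, 11.71 and 11.15, against 11.56, 10.71, 11.32, 11.23 and 11.27 in water. Its groups overlapped and the difference of 0.38 ± 0.16 was not called (limma adjusted p = 0.241). Gclm differed from water by -0.17 ± 0.08 at 0.5 ppm, -0.09 ± 0.08 at 2 ppm, 0.11 ± 0.08 at 10 ppm and 0.07 ± 0.08 at 50 ppm. Its other, dimmer probe set was positive at every dose, with 0.27 ± 0.21, 0.18 ± 0.21, 0.09 ± 0.21 and 0.35 ± 0.21 from low to high, so the change of sign with dose is not shared. Slc7a11 was close to the floor, with group means between 5.50 and 6.39 over both harvests and the widest spread of the 10 genes (median SD 0.37), and its 95% interval at 50 ppm ran from -0.55 to 0.53. Its other probe set was dimmer still and read 0.64 ± 0.38 at 50 ppm.

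Srxn1 encodes sulfiredoxin, which restores overoxidized peroxiredoxins, Me1 malic enzyme, a source of NADPH, and Cat catalase, which breaks down hydrogen peroxide. The probe set used for Srxn1 lay within 0.08 of water at every dose at 12 weeks, with a 95% interval of -0.15 to 0.23 at 50 ppm. The dimmest of its 3 others reached -0.43 ± 0.22 at 0.5 ppm and -0.435 ± 0.22 at 10 ppm, neither called (limma adjusted p = 0.284 and 0.325). Me1 differed from water by 0.07 ± 0.08 at 50 ppm and by 0.14 ± 0.08 at 2 ppm, and the dimmer of its probe sets had a called slope of 0.08 ± 0.02 per rank (limma adjusted p = 0.0417), against 0.01 ± 0.02 for the probe set used. Cat lay above water at each dose, by 0.43 ± 0.15 at 2 ppm (limma adjusted p = 0.451) and 0.32 ± 0.15 at 50 ppm (limma adjusted p = 0.172). Its other probe set read -0.25 ± 0.20 at 50 ppm, so the direction for Cat is not settled.

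In the mean of the 4 arsenate groups against water at 12 weeks, 0 of the 10 genes were called by limma, and 2 of them, Hmox1 with 0.38 ± 0.12 (limma adjusted p = 0.0979) and Cat with 0.27 ± 0.12 (limma adjusted p = 0.189), had an unadjusted p under 0.05. Without water bladder 1 Hmox1 was called in that mean with 0.475 ± 0.12 (limma adjusted p = 0.0343). Of the 25 fits without 1 bladder, the other 24 did not call it (limma adjusted p up to 0.282). In that comparison 0.123% of all genes were called and 20.5% had an unadjusted p under 0.05. At 0.5, 2 and 10 ppm the shares of all genes called were 0.527%, 0.0137% and 0.335%, with 0 of the 10 genes at each dose. At an unadjusted p under 0.05 there were 0, 2 and 2 of them, against 19%, 9.91% and 16% of all genes. At 50 ppm it was 3 of the 10 against 24.1%, and in the trend 2 against 22.5%. At 50 ppm the median difference was 0.07 over the 10 genes and -0.04 over all genes. Positive differences were 8 of the 10, against 6644 of 14618 over all genes. Other probe sets of Nfe2l2, Cat and Srxn1 reached -0.23, -0.25 and -0.18 there. That of Slc7a11, negative in the probe set used, read 0.64.

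**Figure D2:**
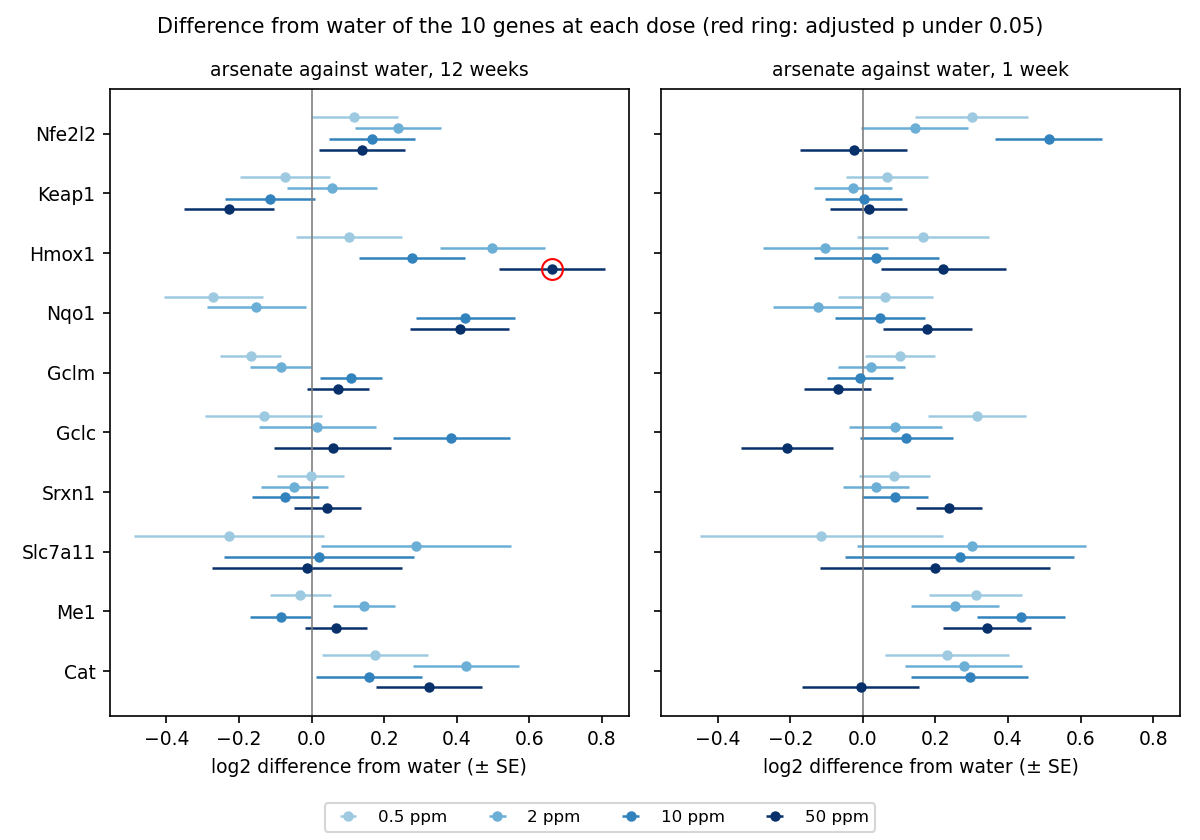
Log2 difference from water ± SE for each of the 10 genes at 12 weeks (left) and at 1 week (right), with dose in ppm by shade, from limma. The red ring marks the only difference with an adjusted p under 0.05, that of Hmox1 at 50 ppm and 12 weeks (0.66 ± 0.15).

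At 1 week limma called 0 of the 10 genes at any dose, and 2, 1, 2 and 2 of them had an unadjusted p under 0.05 from the lowest dose to the highest, against 12.5%, 5.93%, 17.1% and 11.6% of all genes. In the probe sets used, Me1 had the most even pattern. Its levels in water were 12.11, 11.78, 12.16, 11.93 and 12.05. At 0.5 ppm they were 12.24, 12.56, 12.21 and 12.27, and at 2 ppm 12.38, 12.25, 12.19, 12.32 and 12.16. At 10 ppm they were 12.51, 12.59, 12.40, 12.42 and 12.30, and at 50 ppm 12.61, 11.74, 12.65, 12.28 and 12.46. Every bladder at 0.5, 2 and 10 ppm lay above all water bladders, and at 50 ppm 4 of 5 did, with bladder 2 below them. Groups that do not overlap in either direction were found for 6.76% of all genes at 0.5 ppm, 1.61% at 2 ppm, 5.71% at 10 ppm and 2.52% at 50 ppm.

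Me1 differed from water by 0.31 ± 0.13 at 0.5 ppm, 0.25 ± 0.12 at 2 ppm, 0.44 ± 0.12 at 10 ppm and 0.34 ± 0.12 at 50 ppm (limma adjusted p = 0.321, 0.835, 0.0751 and 0.238). The mean of the 4 arsenate groups lay 0.34 ± 0.10 above water (limma adjusted p = 0.16) and the slope was 0.08 ± 0.03 per rank (limma adjusted p = 0.263). Without 50 ppm bladder 2, Me1 was called at 50 ppm with 0.49 ± 0.09 (limma adjusted p = 0.00856), in the mean of the arsenate groups (adjusted p = 0.012) and in the trend (adjusted p = 0.00871). This was the only call of 10 fits without 1 bladder at 50 ppm, and of 24 each in the mean and in the trend. In the others limma adjusted p reached 0.49 at 50 ppm, 0.437 in the mean and 0.484 in the trend. The other probe set of Me1 was less even, with 0.26 at 0.5 ppm, 0.08 at 2 ppm, 0.44 ± 0.11 at 10 ppm and 0.14 ± 0.11 at 50 ppm. It read 0.23 in the mean of the arsenate groups (limma adjusted p = 0.321) and 0.05 per rank (limma adjusted p = 0.65). The 4 comparisons share the 1-week water bladders, in which Me1 had its lowest mean of all 10 groups.

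The 1-week water bladders also differed from each other in liver genes, whose 8 markers were all measured, with Fgb near the floor. The mean of these markers was 8.80 (7.52 to 9.66) in water, 8.23 (7.56 to 9.03) at 0.5 ppm, 8.60 (7.64 to 10.29) at 2 ppm, 7.69 (7.25 to 8.08) at 10 ppm and 7.00 (6.68 to 7.603) at 50 ppm. The ranges at all doses overlapped with that of water. The part of the liver genes in the level of Me1 was not tested.

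Nfe2l2 stood apart at 10 ppm, with levels of 12.42, 12.57, 12.90, 12.82 and 12.72, against 12.38, 12.14, 11.99, 12.08 and 12.27 in water at 1 week. The groups did not overlap, and the difference was 0.51 ± 0.15 (limma adjusted p = 0.08). Without 10 ppm bladder 1 it was 0.58 ± 0.15 and called (limma adjusted p = 0.0399), and without bladders 1 and 2, which have no RNA integrity number, 0.64 ± 0.17 (limma adjusted p = 0.0392). Of the 10 fits without 1 bladder, the other 9 did not call Nfe2l2 (limma adjusted p up to 0.229). At 50 ppm the 5 bladders spread from 11.55 to 12.76 and the difference was -0.03 ± 0.15. The dimmer probe set of Nfe2l2 read 0.17 ± 0.205 at 10 ppm.

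Srxn1 at 50 ppm had 9.74, 9.72, 9.86, 9.80 and 9.69, against 9.41, 9.46, 9.49, 9.60 and 9.66 in water at 1 week. The groups did not overlap, the difference was 0.24 ± 0.09 (limma adjusted p = 0.282), and all 4 probe sets of Srxn1 were higher than in water. Cat did not overlap with water at 10 ppm either, with a difference of 0.29 ± 0.16 (limma adjusted p = 0.353). Gclc differed by 0.31 ± 0.135 at 0.5 ppm (limma adjusted p = 0.341) and by -0.21 ± 0.13 at 50 ppm (limma adjusted p = 0.559), where its other probe set read 0.16 ± 0.14, so that direction is not settled.

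Hmox1 and Nqo1, whose slopes over the dose ranks were called at 12 weeks, were not called at 1 week. Hmox1 at 50 ppm had 8.58, 8.58, 8.37, 8.80 and 8.73, against 7.90, 8.31, 8.63, 8.63 and 8.48 in water, a difference of 0.22 ± 0.17 with a 95% interval of -0.13 to 0.57. Nqo1 at 50 ppm had 11.34, 11.52, 11.34, 11.41 and 11.48, against 11.28, 10.84, 11.45, 11.64 and 11.00 in water, a difference of 0.18 ± 0.12 with a 95% interval of -0.08 to 0.43. Both sets of groups overlapped. The probe sets used for Keap1 and Gclm lay within 0.11 of water at every dose at 1 week, and that of Slc7a11 reached 0.30 ± 0.32 at 2 ppm. The other probe set of Gclm read 0.64 ± 0.30 at 0.5 ppm and 0.72 ± 0.28 at 10 ppm (limma adjusted p = 0.381 and 0.191), and that of Keap1 read -0.355 ± 0.13 at 10 ppm (limma adjusted p = 0.175), so the probe sets of these genes do not give 1 value.

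Shares of all genes called at 1 week were 0.0479% at 0.5 ppm, 0% at 2 ppm, 0.78% at 10 ppm and 0.335% at 50 ppm. They were 0.109% in the mean of the arsenate groups and 0.267% in the trend, again with 0 of the 10 genes. At an unadjusted p under 0.05 there was 1 of the 10 genes in the mean and 2 in the trend, against 11.5% and 9.73% of all genes. All 10 differences in the mean of the arsenate groups were positive, against 7579 of 14618 over all genes. Their median was 0.10 over the 10 genes and 0.01 over all genes. They share the 1-week water bladders, and the other probe set of Keap1 read -0.04.

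**Figure D3:**
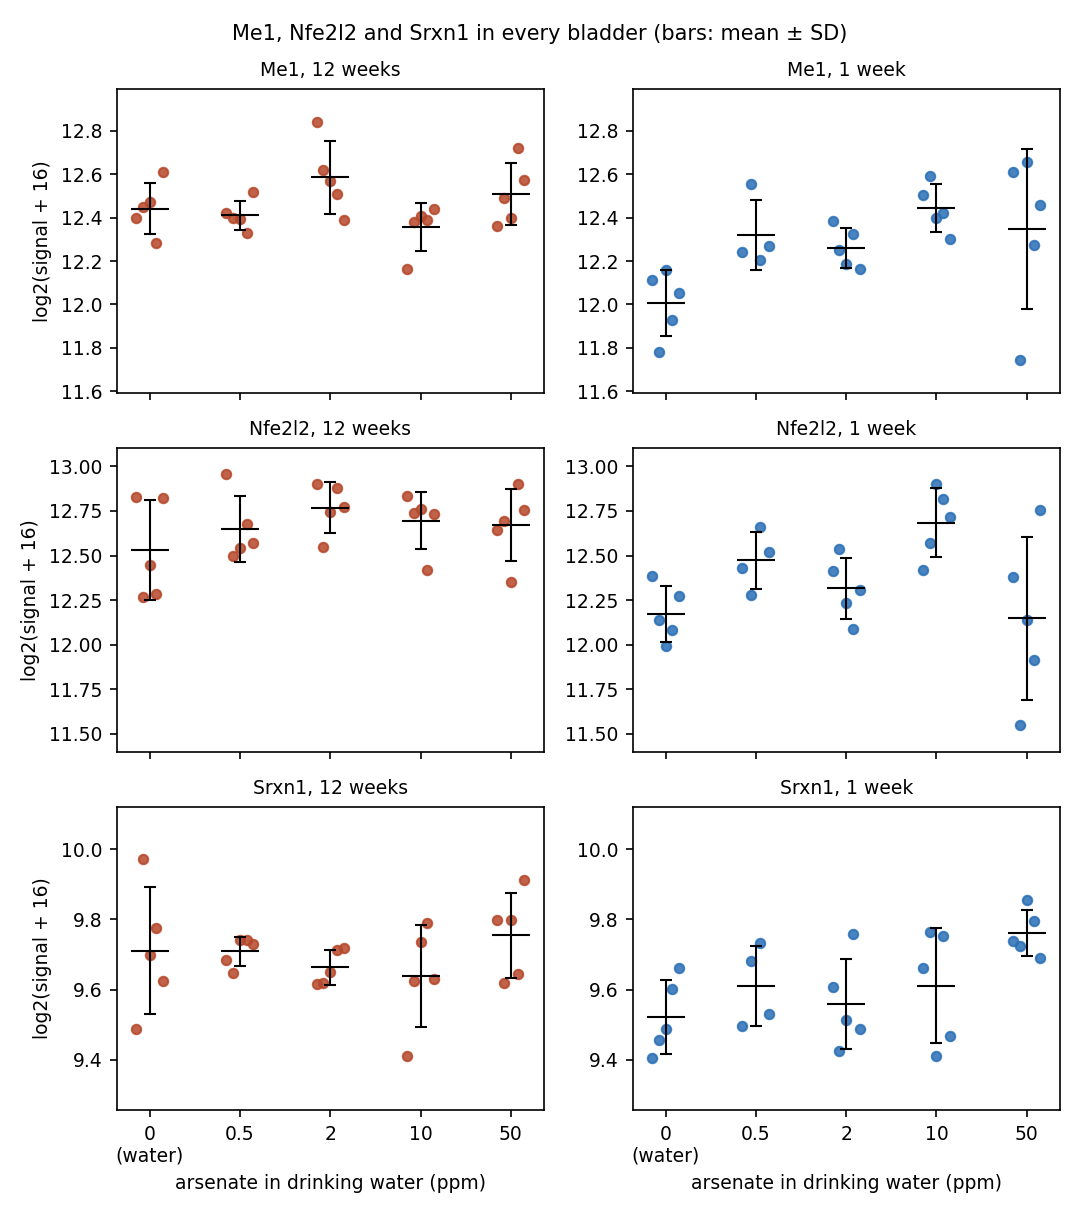
Levels of Me1, Nfe2l2 and Srxn1 as log2(signal + 16) in every bladder at 12 weeks (left) and at 1 week (right), by arsenate dose in ppm, each point 1 mouse and each bar a mean ± SD. At 1 week the Me1 bladders at 0.5, 2 and 10 ppm all lie above the water bladders, and 50 ppm bladder 2 is the lowest point of Me1 with 11.74.

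Whether a dose acted differently at 12 weeks than at 1 week was tested as the difference between the effects of both harvests, 12 weeks minus 1 week. None of the 10 genes was called. At 50 ppm the effect on Hmox1 differed by 0.44 ± 0.23 (limma adjusted p = 0.218) and that on Nqo1 by 0.23 ± 0.19 (limma adjusted p = 0.471), so the rise of Hmox1 at 12 weeks was not shown to differ from the value at 1 week. The smallest p of the 10 genes was that of Me1 at 10 ppm, where the effect was -0.09 ± 0.08 at 12 weeks and 0.44 ± 0.12 at 1 week, a difference of -0.52 ± 0.15 (limma adjusted p = 0.0629). At 2 ppm the effect on Hmox1 differed by 0.60 ± 0.23 (limma adjusted p = 0.795). At 0.5 ppm all 10 differences were negative, against 7689 of 14618 over all genes. The median was -0.16 over the 10 genes and -0.02 over all genes, and the other probe set of Slc7a11 read 0.71. For Gclm the difference was -0.27 ± 0.12 (limma adjusted p = 0.209). The other probe set of Gclm was positive at 0.5 ppm at both harvests.

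For these differences 4.61% of all genes were called at 0.5 ppm, 0% at 2 ppm, 1.38% at 10 ppm and 7.36% at 50 ppm. At an unadjusted p under 0.05 there were 3, 1, 1 and 0 of the 10 genes, against 19.6%, 5.94%, 13.9% and 25.1% of all genes.

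The water bladders of both harvests were also compared with each other. In bladders that had water for 12 weeks, 2 of the 10 genes were called against bladders that had water for 1 week, both higher, and 13.4% of all genes were called. Age, harvest and time on the study water cannot be told apart in this comparison. Me1 had 12.40, 12.45, 12.47, 12.28 and 12.61 at 12 weeks, against 12.11, 11.78, 12.16, 11.93 and 12.05 at 1 week. The groups did not overlap, which held for 9.53% of all genes in either direction. Me1 rose by 0.43 ± 0.11, or 1.35-fold (limma adjusted p = 0.00421), and its other probe set read 0.30 ± 0.11 (limma adjusted p = 0.0509).

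Nqo1 had 11.60, 11.90, 11.80, 11.33 and 12.03 in water at 12 weeks, against 11.28, 10.84, 11.45, 11.64 and 11.00 in water at 1 week. The groups overlapped, with 3 of 5 older bladders above all younger ones. Nqo1 rose by 0.49 ± 0.13, or 1.41-fold (limma adjusted p = 0.0108). The call was lost without 12-week bladder 5 (adjusted p = 0.0509) or without 1-week bladder 2 (adjusted p = 0.0602).

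Of 10 fits without 1 bladder, Nfe2l2 was called only without 12-week bladder 2, with 0.42 (limma adjusted p = 0.0422), and the others had adjusted p up to 0.221. With all bladders Nfe2l2 differed by 0.36 ± 0.14 between the water groups (limma adjusted p = 0.0767), Srxn1 by 0.19 ± 0.09 (limma adjusted p = 0.142) and Gclm by 0.17 ± 0.09 (limma adjusted p = 0.181). Dimmer probe sets of these genes read higher and had adjusted p-values under 0.05, with 0.65 ± 0.22 for Nfe2l2 (limma adjusted p = 0.037), 0.875 ± 0.26 for Gclm (limma adjusted p = 0.0172) and 0.84 ± 0.27 for 1 of the 3 others of Srxn1 (limma adjusted p = 0.0328). For Gclc the probe set used read 0.07 ± 0.15 and the other 0.52 ± 0.12 (limma adjusted p = 0.0022). Hmox1, Keap1 and Cat differed by 0.05 ± 0.16, 0.08 ± 0.12 and -0.01 ± 0.16.

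Cell type markers moved between the water groups as well. The 6 fibroblast markers averaged 12.97 (12.65 to 13.25) at 12 weeks, against 13.81 (13.77 to 13.84) at 1 week, and the 6 macrophage markers 10.54 (10.43 to 10.66), against 10.99 (10.80 to 11.24). The 8 liver markers averaged 6.87 (6.59 to 7.04) at 12 weeks, against 8.80 (7.52 to 9.66) at 1 week. The 5 markers of umbrella and intermediate urothelium averaged 13.81 (13.73 to 13.89) at 12 weeks, against 13.74 (13.66 to 13.81) at 1 week. The hybridization controls averaged 11.20 at 12 weeks, against 11.64 at 1 week, and with them as a covariate Me1 differed by 0.29 ± 0.10 (limma adjusted p = 0.0477) and Nqo1 by 0.45 ± 0.145 (limma adjusted p = 0.0391). The part of the marked cells in the levels of Me1 and Nqo1 was not tested.

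**Figure D4:**
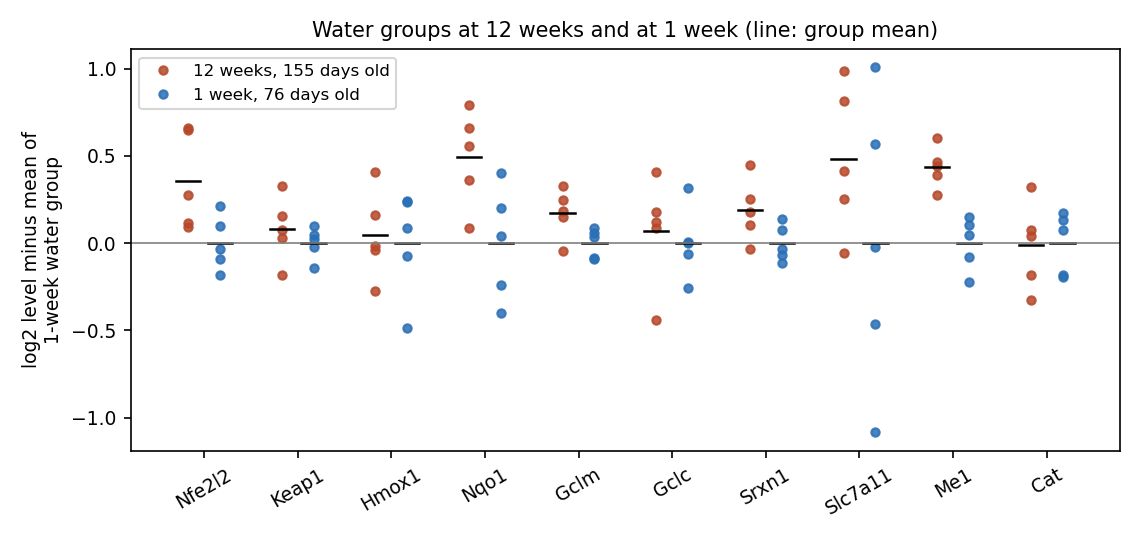
Level of each of the 10 genes in every water bladder at 12 weeks (left of each pair) and at 1 week (right), as the log2 difference from the mean of the 1-week water group, with lines for group means. Me1 is the member whose groups do not overlap, and Slc7a11 spreads most widely.

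Of 52 other genes of the pathway, 44 were tested. They were 10 regulators of NRF2, 6 genes of glutathione and thioredoxin, 4 of NADPH supply, 6 of haem and iron and 18 of detoxification and export. At 50 ppm and 12 weeks 2 of the 44 rose and 1 fell, against the 4.06% called of all genes. The kinase gene Gsk3b, whose product marks NRF2 for breakdown, had 10.19, 10.30, 10.10, 10.14 and 10.28 at 50 ppm, against 9.63, 8.93, 9.62, 9.57 and 9.69 in water, and rose by 0.71 ± 0.13 (limma adjusted p = 0.00594). All 6 of its probe sets were higher, by 0.05 to 0.71, and 1 of them was called. Aldh1a1, which oxidizes retinal and other aldehydes, rose by 0.40 ± 0.10 (limma adjusted p = 0.0269), and Gstm2, a glutathione transferase with close relatives in sequence, fell by 0.42 ± 0.11 on the log2 scale (limma adjusted p = 0.034). The 44 genes held 0 calls at 50 ppm with the poly-A covariate, under which Gsk3b had an adjusted p of 0.416, and 1 to 6 calls when single bladders were left out. Of the 10 fits without 1 bladder, Aldh1a1 lost its call in 4 and Gstm2 in 7.

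The 12-week trend called 5 of the 44 genes upward and 1 downward, against the 5.27% called of all genes, and 0 of the 44 with the poly-A covariate, where limma called 0 of all genes and 1344 had an unadjusted p under 0.05. Those of smallest p were Gsk3b with 0.18 ± 0.03 per rank (limma adjusted p = 0.00146), Aldh1a1 with 0.11 ± 0.02 (limma adjusted p = 0.0119) and Bach1, which encodes a repressor of Hmox1, with 0.15 ± 0.04 (limma adjusted p = 0.0369), and Gstm2 with -0.09 ± 0.03 (limma adjusted p = 0.0402). Of the 25 fits without 1 bladder, Bach1 lost its call in 10 and Gstm2 in 14. The 6 genes of glutathione and thioredoxin, the 6 of haem and iron and the 4 of NADPH supply held 0 calls both at 50 ppm and in the trend, with 0, 1 and 0 genes at 50 ppm and 1, 0 and 1 in the trend at an unadjusted p under 0.05. At 10 ppm and 12 weeks Gsk3b rose by 0.60 ± 0.13 (limma adjusted p = 0.0323), a call lost in 7 of 10 fits without 1 bladder and with the poly-A covariate (0.19 ± 0.18, limma adjusted p = 0.636). At 0.5 ppm and 12 weeks Ephx1, a microsomal epoxide hydrolase, fell by 0.34 ± 0.08 (limma adjusted p = 0.0463), a call lost in 8 of 10 fits without 1 bladder (limma adjusted p up to 0.147). At 2 ppm and 12 weeks, and at every dose at 1 week, 0 of the 44 genes were called, with 3 at 2 ppm and 5, 1, 6 and 5 at the 1-week doses at an unadjusted p under 0.05.

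Between the water groups, 10 of the 44 genes were called higher at 12 weeks and 1 lower, against 917 higher and 1037 lower of the 14618 genes, or 13.4% in all. The smallest p was that of Aldh3a1, an aldehyde dehydrogenase of surface epithelia, with 13.14, 13.38, 13.26, 13.20 and 13.22 in water at 12 weeks, against 12.54, 12.18, 12.64, 12.54 and 12.20 in water at 1 week. These did not overlap, and the rise was 0.82 ± 0.12 (limma adjusted p = 8.01e-06). Gsta3 rose by 0.65 ± 0.11 (limma adjusted p = 8.39e-05), Aldh1a1 by 0.54 ± 0.10 (limma adjusted p = 0.000322) and Gpx2, a glutathione peroxidase of epithelia, by 0.66 ± 0.15 (limma adjusted p = 0.00213). The genes of detoxification and export held 7 of the 10 rises among 18 genes, with a median of 0.29, against 0.02 over all genes.

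In the difference between harvests at 0.5 ppm, 5 of the 44 genes were called lower, those of smallest p being Ptgr1 with -0.41 ± 0.11, Gpx2 with -0.79 ± 0.22, Akr1b8 with -0.63 ± 0.18 and Aldh3a1 with -0.60 ± 0.17 (limma adjusted p = 0.024 to 0.0311). At this dose the markers of umbrella and intermediate urothelium averaged 13.65 against 13.81 in water at 12 weeks, and 13.96 against 13.74 at 1 week. Those of basal urothelium averaged 11.03 against 11.27 at 12 weeks, and 11.39 against 11.03 at 1 week. The part of the urothelium in the levels of these 5 genes was not tested. The share of all genes called was 4.61%, and the count of 5 was 0 with arrays centred on their median and 0 to 8 without single bladders. At 50 ppm 2 were called higher and 4 lower, against 7.36% of all genes and 2 in all with the poly-A covariate, those of smallest p being Gsk3b with 1.12 ± 0.16 (limma adjusted p = 0.000134), Gstm2 with -0.67 ± 0.17, Btrc with -0.56 ± 0.16 and Bach1 with 0.97 ± 0.28 (limma adjusted p = 0.0125 to 0.0261). The 5 probe sets of Btrc, which encodes an adaptor of a ubiquitin ligase, did not share a sign. The effect of 50 ppm on Gsk3b was 0.71 ± 0.13 at 12 weeks and -0.41 ± 0.11 at 1 week (limma adjusted p = 0.0855), where its levels were 9.68, 9.21, 9.64, 9.52 and 9.84 at 50 ppm, against 9.92, 10.18, 9.92, 10.07 and 9.85 in water. Between the water groups Gsk3b fell by 0.50 ± 0.12 at 12 weeks (limma adjusted p = 0.00268), and these comparisons share the water bladders.

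The 10 genes were also compared in pairs within groups, with no median over other gene pairs to set beside them. Over the 49 arrays with each group mean removed, the 45 pairs of members had a median Pearson r of 0.06, and 16 pairs were negative. The highest was Me1 with Cat at 0.60, the only pair over 0.5, and the lowest Nfe2l2 with Keap1 at -0.68. Hmox1 had no r above 0.143 with any other member. Nqo1 had an r of 0.30 with Gclm, 0.32 with Gclc and 0.33 with Me1, and Gclm one of 0.30 with Gclc. Gclm and Gclc had 0.06 and -0.02 with Me1. These points share the scaling of each array, and the array median of log2 signals had an r of 0.40 with Nfe2l2, -0.53 with Keap1 and 0.51 with Gclc. Me1 had an r of -0.53 with the hybridization controls and Srxn1 one of 0.52 with the poly-A controls. Cat varied with the adipocyte markers (r = 0.64, 3 of 5 measured), Keap1 with the endothelial markers (r = -0.65, 5 of 5 measured) and Me1 with the smooth muscle markers (r = -0.50). Nqo1 and Gclm varied with the markers of umbrella and intermediate urothelium (r = 0.47 and 0.49).

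**Figure D5:**
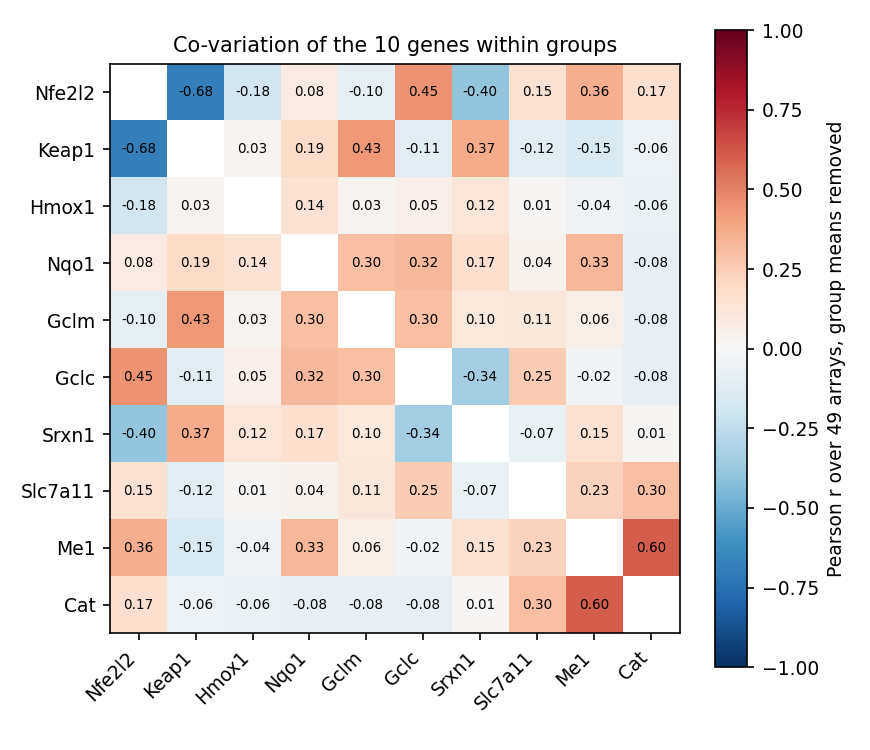
Pearson r between each pair of the 10 genes over 49 arrays after the mean of each dose and harvest group was removed, from -1 (blue) to 1 (red). Most cells are pale, with a median of 0.06, and the darkest are Nfe2l2 with Keap1 (-0.68) and Me1 with Cat (0.60).

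By the same measure the genes most like each member were named, 2 for each of them, as a description over 49 arrays. For Nfe2l2 they were Hsdl2 (r = 0.90) and Slc39a6 (r = 0.90), for Keap1 Guk1 (r = 0.82) and Nudt18 (r = 0.82), and for Hmox1 Zmynd19 (r = 0.61) and Mcmbp (r = 0.58). Nqo1 was most like Parl (r = 0.77) and Hsd17b2 (r = 0.76), Gclm most like Prkcz (r = 0.67) and Foxq1 (r = 0.67), and Gclc most like Kdm5b (r = 0.85) and Gdpd1 (r = 0.81). Srxn1 was nearest to Sbf1 (r = 0.66) and Bag3 (r = 0.64), Me1 to Cct5 (r = 0.74) and Pon3 (r = 0.73), and Cat to C9orf72 (r = 0.835) and Ghr (r = 0.82). Slc7a11, the dimmest member, was nearest to Tcim (r = 0.54) and 4933433F19Rik (r = 0.54). No member was among the 2 genes most like another member.

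Levels over the 10 groups spanned least in Srxn1, whose group means lay between 9.52 and 9.76, and most in Nqo1, between 11.12 at 2 ppm and 1 week and 12.16 at 10 ppm and 12 weeks. Hmox1 was lowest at 2 ppm and 1 week (8.29) and highest at 50 ppm and 12 weeks (9.10). Me1 was lowest in water at 1 week (12.01) and highest at 2 ppm and 12 weeks (12.59), the group that also held the highest means of Nfe2l2, Keap1, Slc7a11 and Cat. In the probe sets used, Gclc and Gclm had both their lowest mean at 50 ppm and 1 week and both their highest at 10 ppm and 12 weeks. Their other probe sets lay above water at 50 ppm and 1 week, by 0.16 for Gclc and 0.13 for Gclm, so that group was not their lowest.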

How the data were processed

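The members and the lists of pathway genes and markers were chosen with earlier results of these data known. Per the labels, RNA came from Trizol extraction and Qiagen clean-up, and its biotin-labelled copies were read on Affymetrix Mouse430_2 arrays. The deposited table gives linear intensities made by the authors with GCOS 1.0, per the submitters' processing notes, whose scaling target is not given in the sources used here. Without the 2% at each end the mean was 500.003 to 500.004 on every array, so arrays had been scaled to a common mean.

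Of 45101 probe sets, 34945 carry 1 gene in the platform annotation and 64 are controls. Intensities were taken as log2(value + 16). Each gene took its brightest probe set on average and was kept where 4 or more arrays had it above their 40th percentile. Differences were fitted with limma 3.58.1 (lmFit, eBayes with a trend) in R 4.3.3, each harvest alone (25 arrays at 12 weeks, 24 at 1 week), and with all 49 arrays for differences between harvests and between the water groups. P-values measure the spread between mice. The steps were tested on simulated data. For arrays the number per group limits the precision. All members were named, and of the other pathway genes up to 4 called ones of smallest p per comparison. Alternatives were offsets of 1 and 64, 2 other scalings, 2 other filters, other probe sets, array weights, 1 joint fit, covariates (RNA integrity, poly-A and hybridization controls), a slope without water, the replicate number as a block and leaving out single arrays. Leaving out the 3 arrays of 2 ppm at 1 week with an integrity number of 7.2 was added after seeing the data, as was leaving out the 2 arrays of 10 ppm at 1 week with no integrity number. Promoters came from RefSeq. Plots used matplotlib 3.10.9.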

Additional observations from a re-analysis of the deposited data

Results flagged for a closer look

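In 7 of 100 groups of bladders, 10 genes in 10 groups, the highest or lowest bladder stood far from the rest by Dixon's criterion, which chance gives in about 1 group in 20. Cat had 4 of them, each a single high bladder. They were 12.61 at 2 ppm (next 11.88) and 12.18 at 50 ppm (next 11.76) at 12 weeks, and 12.08 at 0.5 ppm (next 11.64) and 12.40 at 2 ppm (next 11.77) at 1 week. The others were single low bladders at 12 weeks, with 12.42 for Nfe2l2 at 10 ppm (next 12.73), 10.03 for Keap1 at 50 ppm (next 10.41) and 12.16 for Me1 at 10 ppm (next 12.38).

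For 2 members, each at 1 dose, every arsenate bladder lay on one side of the water mean at 12 weeks and on the other side at 1 week. The share of all genes with this pattern was not counted, so the 2 cannot be set against it. All members are compared with the same water bladders of each harvest. Me1 at 10 ppm was below the water mean in 5 of 5 bladders at 12 weeks and above it in 5 of 5 at 1 week, with a difference between the effects of -0.52 ± 0.15 (limma adjusted p = 0.0629). Gclm at 0.5 ppm was below it in 5 of 5 at 12 weeks and above it in 4 of 4 at 1 week, with a difference of -0.27 ± 0.12 (limma adjusted p = 0.209). The other probe set of Gclm was above water at both harvests, with 0.27 ± 0.21 at 12 weeks and 0.64 ± 0.30 at 1 week.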

How the results depend on the processing

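The number of members called stayed the same under offsets of 1 and 64, quantile normalization, centring on the median, both other filters and the exclusion of the 3 arrays of low RNA integrity, which was chosen after seeing the data. It also stayed the same under the replicate block, with 1 member called at 50 ppm and 12 weeks, 2 in the 12-week trend and 2 between the water groups. By the median, bladders of the same number deviated together little more than others (r = 0.01 against -0.004 at 12 weeks and -0.0007 against -0.006 at 1 week). The highest r was 0.39 for the same number against 0.27 for others at 12 weeks, and 0.21 against 0.29 at 1 week. Medians over all pairs cannot show whether the numbers pair some of the mice. With array weights 2 members were called at 10 ppm and 1 week, and 1 each at 50 ppm, in the mean and in the trend at 1 week, in the mean at 12 weeks, and in the differences between harvests at 10 and 50 ppm, with 3 between the water groups. With 1 joint fit the counts were 1 at 10 ppm and 1 week and 2 at 50 ppm and 12 weeks. The RNA integrity covariate gave 1 at 10 ppm and 1 week, but this fit lacks the 2 bladders of that group that have no number, and without them the count was also 1 with no covariate, an alternative chosen after seeing the data. The poly-A covariate gave 0 at 50 ppm and 0 in the trend at 12 weeks. The hybridization covariate gave 1 at 10 ppm and 1 in the mean at 1 week and 1 in the 12-week trend, and the slope without water gave 1. Leaving out single bladders gave 0 to 1 members at 50 ppm and in the mean at 12 weeks, 1 to 2 in the 12-week trend, 0 to 1 at 10 ppm, at 50 ppm, in the mean and in the trend at 1 week, 0 to 1 in the difference at 50 ppm and 1 to 3 between the water groups. Among values with an unadjusted p under 0.05, the other probe set of Cat reversed 50 ppm (-0.25) and the mean (-0.11) at 12 weeks. Over all doses and harvests probe sets differed in sign in 21 of 64 comparisons, 4 each for Gclm and Keap1, 3 each for Cat, Srxn1 and Slc7a11, 2 for Nfe2l2 and 1 each for Gclc and Me1. Counts over all genes moved far more. At 50 ppm and 12 weeks 594 genes were called, 1 with the poly-A covariate and 1617 without water bladder 1, and in the 12-week trend 770, against 0 by limma with the poly-A covariate, where 1344 had an unadjusted p under 0.05, and 1892 without 0.5 ppm bladder 1. Array weights gave 1264 genes at 10 ppm and 1 week, against 114. The 44 other pathway genes had 6 calls in the 12-week trend, 0 with the poly-A covariate, and 2 to 9 without single bladders. The causes were not tested. Dim signals limit Slc7a11, and 5 mice a group limit all other members.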
